A study of Mus musculus with 10 samples.

Results

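The mitochondrial fatty acid oxidation enzymes were examined in mRNA-seq of mouse visceral white adipose tissue (WAT) as a set of 9 genes out of the 47937 that each library listed: Cpt1a, Cpt1b, Cpt2, Acadm, Acadl, Acadvl, Hadha, Hadhb and Etfdh. The members were chosen by gene symbol for their place in the pathway, and the symbols were found from the Ensembl identifiers of the count tables with the version dropped. The study compared wild-type mice (Mof+/+) with mice that carry 1 functional copy of Mof, the gene named Kat8 in the annotation, which encodes a histone H4 lysine 16 acetyltransferase (Mof+/-). All mice were C57BL/6. On standard diet (SD) there were 3 Mof+/+ and 3 Mof+/- libraries from mice 8 weeks old. On high-fat diet (HFD) there were 2 libraries of each genotype from mice that the labels put at 27 weeks of age after 20 weeks of HFD, so that diet and age cannot be told apart in any comparison of the diets. The labels and the text of the study differ on the length of HFD feeding, and the time given here is that of the labels. The loss of Mof is constitutive and affects every tissue, and no source used here says whether a library holds 1 animal or a pool.

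As background, long-chain fatty acids enter the mitochondrial matrix as carnitine esters. CPT1 on the outer membrane makes the ester, with CPT1A as the liver form that many tissues use and CPT1B as the muscle form, and CPT2 on the inner membrane restores the acyl-CoA. Each round of beta-oxidation then begins with an acyl-CoA dehydrogenase (ACADVL for very long, ACADL for long and ACADM for medium chains), and the trifunctional protein, built of HADHA and HADHB, carries out the later steps for long chains. ETFDH passes the electrons from the dehydrogenases to ubiquinone. White adipocytes mainly store and release fatty acids, whereas muscle and brown fat burn them and express the same enzymes. CPT1 is inhibited by malonyl-CoA, which ACACB makes at the mitochondrial surface.

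Libraries are named here by their sample labels. The total count on genes ran from 1044355 in HFD Mof+/- replicate 1 to 17171947 in SD Mof+/- replicate 1. Values are given as CPM, the count of a gene per 1000000 counts of its library, after scaling by edgeR's TMM factor (0.839 to 1.18). On SD the factor was 1.13 to 1.18 in Mof+/+ and 0.842 to 0.917 in Mof+/-. On HFD it was 1.07 in both Mof+/+ libraries and 0.839 and 0.973 in Mof+/-. This scaling thus raised Mof+/- values beside Mof+/+ values on both diets. Kat8 did not separate the genotypes. It stood at 18.8, 18.9 and 17.2 CPM in SD Mof+/+ and at 13.3, 20.6 and 13.6 in SD Mof+/-. On HFD it was at 17.0 and 18.0 CPM in Mof+/+ and at 24.0 and 10.8 in Mof+/-, and 24.0 rests on 21 counts (95% exact Clopper-Pearson interval 14.8 to 36.6). Inside the tables, the column headings exchange the genotypes of the replicates numbered 3 on SD. HFD Mof+/- replicate 1 stood apart from the rest. A list of 16 skeletal muscle genes took 8.15% of its counts, whereas it took 0.197% in HFD Mof+/- replicate 2 and no more than 0.0132% in any of the rest, and genes of the mitochondrial genome took 26.9%, against 1.79% to 8.82% elsewhere. Of 9731 genes with a mean of at least 10 CPM, 1842 had no count in it, against 66 in HFD Mof+/- replicate 2. The adipocyte markers were detected in all 10 libraries, with a sum of 16138 to 64823 CPM, and none of the 8 was at 0 in any library. Intervals and the floor for detection, 3 counts, cover counting error only.

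The sequences below show the start of the genes on which the results turn: the stretch shared by Hadha and Hadhb, whose levels are compared as a ratio, and the bases before the first exon of the principal mRNA of Cpt1a, the member that passed the test for diet, and of Acadl, the member with the lowest adjusted p for genotype on SD. They are from RefSeq promoter windows on GRCm38.p6, in lower case, with capitals for 2 motifs on either strand, AGGTCA with its reverse complement TGACCT, the half-site of many nuclear receptors, and GGGCGG with its reverse complement CCGCCC, the GC box.
Hadha-Hadhb interval, chr5:30155163-30155247, plus strand: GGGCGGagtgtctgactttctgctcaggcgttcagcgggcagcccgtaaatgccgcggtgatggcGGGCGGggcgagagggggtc
Cpt1a, before the first exon of the principal mRNA, chr19:3323051-3323284, plus strand: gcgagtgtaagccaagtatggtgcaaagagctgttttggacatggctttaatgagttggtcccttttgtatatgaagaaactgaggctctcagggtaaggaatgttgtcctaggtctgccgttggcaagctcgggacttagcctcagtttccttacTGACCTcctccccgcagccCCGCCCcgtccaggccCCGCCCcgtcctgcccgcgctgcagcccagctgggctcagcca
Acadl, before the first exon of the principal mRNA, chr1:66863278-66863559, minus strand: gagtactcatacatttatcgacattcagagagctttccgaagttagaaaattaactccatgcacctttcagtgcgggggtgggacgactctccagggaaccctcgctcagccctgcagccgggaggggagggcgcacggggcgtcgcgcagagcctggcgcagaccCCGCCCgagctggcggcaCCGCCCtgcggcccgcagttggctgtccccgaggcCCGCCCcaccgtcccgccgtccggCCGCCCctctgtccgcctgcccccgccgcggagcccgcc
Hadha, on the minus strand, and Hadhb, on the plus strand, point away from each other, with 85 bases between their outermost annotated starts, and this interval holds the GC box 2 times. The Cpt1a stretch lies within the annotated gene, in an intron of another Cpt1a transcript that starts farther upstream, whereas the Acadl stretch lies outside its gene. The Cpt1a stretch holds 1 AGGTCA and 2 GC boxes, and the Acadl stretch holds 4 GC boxes and no AGGTCA. RefSeq windows of 300 bases were found for 8 of the 9 members. AGGTCA was in the windows of 3 members, Acadm, Acadvl and Cpt1a, and in 16.3% of all 32851 windows. GGGCGG was in the windows of 6 members (Acadl, Etfdh, Cpt2, Hadha, Hadhb and Cpt1a) and in 35.7% of all windows. The windows of Hadha and Hadhb may hold the same GC boxes, since these genes start 85 bases apart. Another motif, CCAAT or its reverse complement ATTGG, was in the windows of 2 members, Etfdh and Cpt1a, and in 37.4% of all windows. These matches describe letters in a window and are not binding sites.

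Levels between genes were compared per kilobase of the principal mRNA. In SD Mof+/+, Acadm was the highest at 170 ± 26.9 CPM per kb (SD, n = 3). Hadhb (86.4 ± 7.73), Acadl (85.6 ± 8.44) and Acadvl (84.7 ± 5.24 CPM per kb) followed, and their libraries overlapped. Hadha (47.7 ± 7.21), Cpt2 (44.9 ± 7.24) and Etfdh (35.0 ± 8.19 CPM per kb) formed the next run, in which each overlapped its neighbour. Cpt1a was lower, at 13.8 ± 2.85 CPM per kb, with no overlap with Etfdh. Acadm was also first in the other 3 groups. In HFD Mof+/+, Cpt1a stood at 29.2 ± 3.82 CPM per kb (SD, n = 2), next to Etfdh (30.1 ± 3.78) and Cpt2 (29.0 ± 4.21), and these 3 overlapped. In HFD Mof+/-, Acadm (249 ± 59.7), Acadl (232 ± 15.5) and Acadvl (199 ± 33.7 CPM per kb) overlapped at the top.

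**Figure D1:**
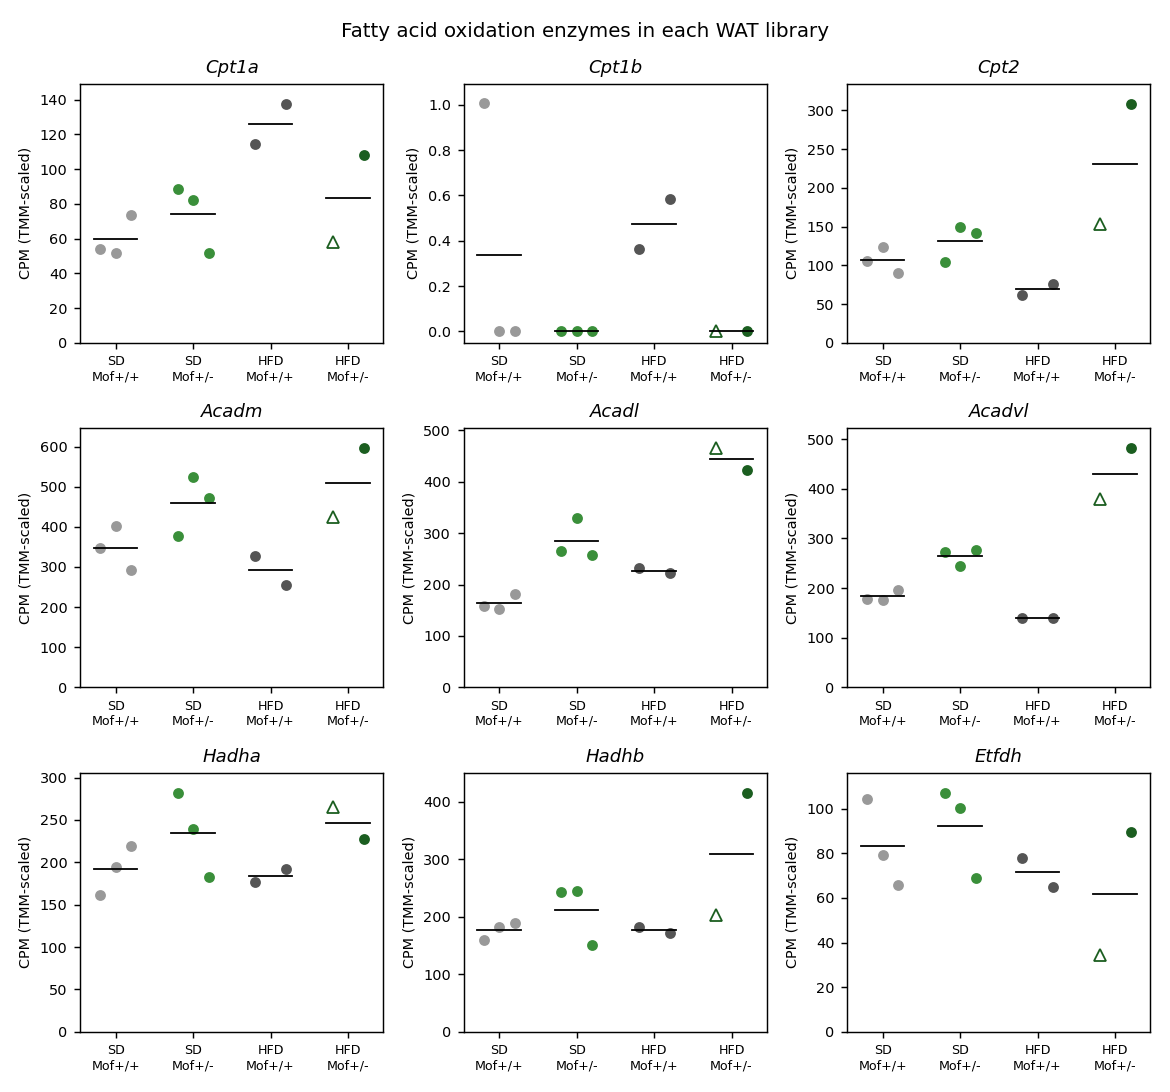
CPM (TMM-scaled) of the 9 enzymes in each library, with 1 point per library, a line at the mean of the group and 1 panel per gene with its own axis from 0. The open triangle is HFD Mof+/- replicate 1, and Cpt1b stays at or below 1.01 CPM in all 10 libraries.

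The question of the design is whether these transcripts differ with the loss of 1 Mof copy, with diet, and with both together. Cpt1b had too few counts to be tested, so that 8 of the 9 members entered each comparison. A single member in a single comparison passed edgeR's quasi-likelihood test at a Benjamini-Hochberg adjusted p of 0.05 over all genes: Cpt1a, which was higher on HFD in Mof+/+. On SD, no member passed between the genotypes, against a background of 5.24% of 13864 genes. At an unadjusted p under 0.05 there were 2 members, Acadl and Acadvl, against 25.7% of the genes, and the same 2 members had CPM that did not overlap between the groups, against 35.4%. On HFD, again no member passed, against 0% of 14120 genes. There were 3 members at an unadjusted p under 0.05, Cpt2, Acadl and Acadvl, against 12.3%, and 7 that did not overlap, 6 higher and Cpt1a lower in Mof+/-, against 51%. Between the diets in Mof+/+, 1 of 8 members passed, against 9.75% of 14939 genes, 3 were at an unadjusted p under 0.05, against 28.4%, and 4 did not overlap, against 49.1%. Between the diets in Mof+/- no member passed, against 0% of 13610 genes, none was at an unadjusted p under 0.05, against 8.57%, and 3 did not overlap, against 29.6%. For the genotype by diet interaction no member passed, against 0.0881% of 15897 genes, and 2 were at an unadjusted p under 0.05, Cpt2 and Acadvl, against 12.4%. DESeq2 called 1 member on SD (Acadl, adjusted p = 0.00562), against 15.9% of all genes, none on HFD, against 1.48%, 2 for diet in Mof+/+, against 20%, none for diet in Mof+/-, against 2.95%, and 1 for the interaction, against 3.09%.

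**Figure D2:**
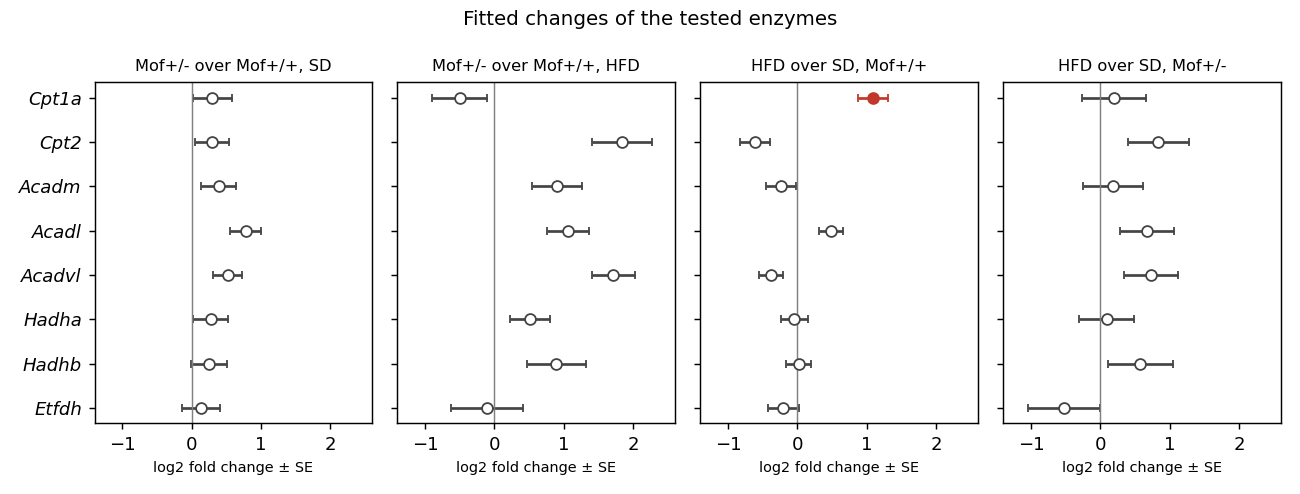
Fitted log2 fold change with its standard error for the 8 tested enzymes in the 4 comparisons of 2 groups, on the same axis. The filled red point is the one value past the adjusted threshold, Cpt1a between the diets in Mof+/+ (1.09), and the points for Cpt2 and Acadvl between the genotypes on HFD (1.83 and 1.72) lie farthest to the right.

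Among the genes of fatty acid entry, Cpt1a showed the diet difference. It was at 53.8, 51.4 and 73.8 CPM in SD Mof+/+ and at 114 and 138 CPM in HFD Mof+/+, so that both HFD libraries lay above every SD library. The log2 fold change was 1.09 (SE 0.223, adjusted p = 0.0304 by edgeR, 2 of 2 libraries higher). This call rests on few libraries. It was lost when SD Mof+/+ replicate 1 (adjusted p = 0.0888) or 2 (0.0644), or HFD Mof+/+ replicate 1 (0.116) or 2 (0.301) was left out, when all 10 libraries entered 1 fit (0.270) and when the 9 other than HFD Mof+/- replicate 1 did (0.0667), with a log2 fold change of 0.963 to 1.28 over these settings and the exclusion of SD Mof+/+ replicate 3. In Mof+/- the diets overlapped, with 88.8, 82.1 and 51.9 CPM on SD and 58.2 (51 counts, 95% interval 43.3 to 76.5) and 108 CPM on HFD. The difference between these diet effects was a log2 value of -0.90 (SE 0.520, adjusted p = 0.516) and was not past the threshold.

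Relative to its lowest library, Cpt2 had the widest range of the 8 tested members. It was at 106, 124 and 89.7 CPM in SD Mof+/+ and 104, 150 and 141 CPM in SD Mof+/-, and these groups overlapped. In HFD Mof+/+ it was at 61.8 and 75.9 CPM, below all SD libraries, whereas it was at 153 (134 counts, 95% interval 128 to 181) and 309 CPM in HFD Mof+/-. By library totals with no TMM factor, replicate 1 was at 128 CPM, within the range of the SD libraries (95.7 to 140 CPM), and still above both HFD Mof+/+ libraries (65.9 and 80.9 CPM). Between the genotypes on HFD the log2 fold change was 1.83 (SE 0.433, adjusted p = 0.278, 2 of 2 libraries higher). The interaction term was 1.45 (SE 0.495, adjusted p = 0.294). Neither passed the adjusted threshold.

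Cpt1b, the muscle form, was close to 0 throughout. It had 9 counts in SD Mof+/+ replicate 1, 6 and 10 counts in the HFD Mof+/+ libraries (0.363 and 0.586 CPM) and no count in the 7 other libraries. HFD Mof+/- replicate 1, which carried the muscle transcripts, also had no count, which allows up to 3.42 CPM at the floor of 3 counts. In the GENCODE M21 annotation, 81.4% of the exonic bases of Cpt1b (2744 of 3372) are shared on the same strand with the readthrough gene Gm44502, which is not listed in the count tables. How the counting treated such bases is not given in the sources used here, so that the low counts were not read as a level of Cpt1b, and no ratio of Cpt1b to Cpt1a was computed.

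The acyl-CoA dehydrogenases of long chains stood apart between the genotypes on both diets. Acadl was at 158, 152 and 182 CPM in SD Mof+/+ and at 266, 329 and 258 CPM in SD Mof+/-, with no overlap. On HFD it was at 232 and 222 CPM in Mof+/+ and at 466 and 424 CPM in Mof+/-, again with no overlap. The log2 fold change was 0.78 (SE 0.227, adjusted p = 0.0763) on SD and 1.06 (SE 0.305, adjusted p = 0.278) on HFD. It was higher in every Mof+/- library than in each Mof+/+ library of the same diet, yet neither value passed the adjusted threshold, and the interaction was 0.18 (SE 0.385). With each SD library left out in turn the adjusted p on SD ran from 0.0646 to 0.240, and it fell to 0.0364 when every library except HFD Mof+/- replicate 1 entered 1 fit. The size depends on the scaling, with a log2 fold change on SD of 0.42 (adjusted p = 0.266) by library totals and of 0.48 (0.264) with a length correction.

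Acadvl was at 178, 176 and 197 CPM in SD Mof+/+ and at 273, 245 and 277 CPM in SD Mof+/-. It was at 140 and 139 CPM in HFD Mof+/+, the lowest values of the series, and at 379 and 482 CPM in HFD Mof+/-, the highest. The groups did not overlap on either diet, although on SD this depends on the scaling. By library totals with no TMM factor the SD libraries overlapped, at 203, 199 and 233 CPM in Mof+/+ and 250, 224 and 233 CPM in Mof+/-, and the log2 fold change on SD was 0.15. With the TMM factor the log2 fold change was 0.52 (SE 0.213, adjusted p = 0.168) on SD and 1.72 (SE 0.309, adjusted p = 0.278) on HFD, and the interaction was 1.10 (SE 0.378, adjusted p = 0.294). Of its exonic bases, 42.9% overlap Dvl2 on the other strand, and the library kit does not mark strand. Dvl2 itself, a signalling gene of the Wnt pathway, was at 0 to 32.5 CPM and had no count in HFD Mof+/- replicate 1.

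Acadm, the dehydrogenase of medium chains, was at 348, 402 and 292 CPM in SD Mof+/+ and at 377, 525 and 472 CPM in SD Mof+/-, and the groups overlapped. On HFD it was at 327 and 255 CPM in Mof+/+ and at 423 and 596 CPM in Mof+/-, with no overlap. The log2 fold change on HFD was 0.90 (SE 0.359, adjusted p = 0.438).

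The subunits of the trifunctional protein kept a similar ratio in all libraries except HFD Mof+/- replicate 2. Hadha was at 162, 194 and 219 CPM in SD Mof+/+, at 282, 240 and 182 CPM in SD Mof+/-, at 177 and 192 CPM in HFD Mof+/+ and at 265 and 228 CPM in HFD Mof+/-. Hadhb was at 159, 183 and 189 CPM in SD Mof+/+, at 243, 244 and 150 CPM in SD Mof+/-, at 182 and 173 CPM in HFD Mof+/+ and at 203 and 416 CPM in HFD Mof+/-. Hadhb in HFD Mof+/- replicate 2 was thus the one high value of the pair. On a per-kilobase scale the log2 ratio of Hadha to Hadhb lay between -1.02 and -0.59 in 9 libraries and was -1.84 in HFD Mof+/- replicate 2. Its mean was -0.86 ± 0.0969 (SD, n = 3) in SD Mof+/+, -0.82 ± 0.163 (n = 3) in SD Mof+/-, -0.92 ± 0.140 (n = 2) in HFD Mof+/+ and -1.22 ± 0.886 (n = 2) in HFD Mof+/-. No comparison of the ratio reached the threshold in a two-sided exact permutation test, with p = 0.7 between the genotypes on SD, 1 on HFD, 0.6 for diet in Mof+/+ and 0.7 for diet in Mof+/- (adjusted over these 4, 0.933 to 1). The smallest p these group sizes allow is 0.1 on SD and between the diets, and 0.333 on HFD. The sign of the difference in HFD turned when replicate 2 was left out, from -0.30 to 0.33.

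Etfdh overlapped between the genotypes on both diets. It was at 104, 79.5 and 65.8 CPM in SD Mof+/+, at 107, 100 and 68.9 CPM in SD Mof+/- and at 77.8 and 65.1 CPM in HFD Mof+/+. In HFD Mof+/- it was at 34.2 CPM (30 counts, 95% interval 23.1 to 48.9) in replicate 1 and at 89.5 CPM in replicate 2, on either side of both HFD Mof+/+ libraries. The log2 fold change between the genotypes was 0.14 (SE 0.269) on SD and -0.10 (SE 0.522) on HFD, where it ran from -1.01 to 0.36 with 1 library left out.

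**Figure D3:**
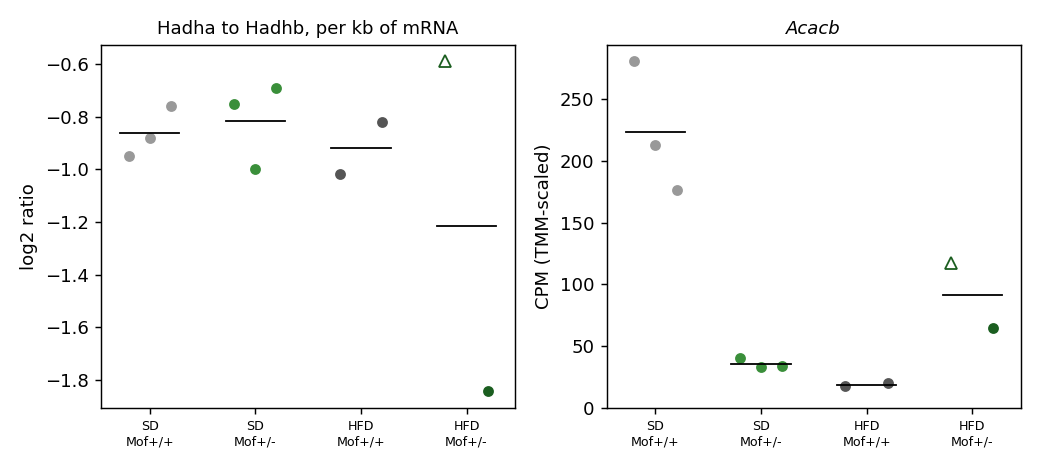
Left, log2 ratio of Hadha to Hadhb per kilobase of mRNA, and right, CPM of Acacb, with 1 point per library and a line at the mean of the group; the open triangle is HFD Mof+/- replicate 1. The ratio of HFD Mof+/- replicate 2 (-1.84) lies below all other libraries, and Acacb is high in SD Mof+/+ (177 to 281 CPM) and low in HFD Mof+/+ (17.4 and 20.2 CPM).

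As a set the members were described by their counts and medians. On SD all 8 had a fitted value above 0, with a median log2 fold change of 0.30, beside -0.07 over all genes tested. This direction depends on the scaling. With library totals and no TMM factor, 3 of 8 were above 0 and the median was -0.06, beside -0.43 over all genes. On HFD 6 of 8 were above 0, with a median of 0.90 beside -0.24 over all genes, and 0.60 beside -0.54 without the TMM factor. Between the diets the median was -0.12 in Mof+/+ (3 of 8 above 0), beside -0.04, and 0.39 in Mof+/- (7 of 8 above 0), beside -0.26. The genotype and diet comparisons share libraries, and their values are given side by side for that reason. Cell type markers moved with the genotypes too. The summed adipocyte markers, 8 genes, were at 16138 to 22443 CPM in SD Mof+/+ and 37806 to 64823 CPM in SD Mof+/-, and at 22726 and 25876 CPM in HFD Mof+/+ and 18007 and 42527 CPM in HFD Mof+/-. On SD, 4 of 5 mesothelial markers passed as higher in Mof+/-, with sums of 19.2 to 33.4 CPM in Mof+/+ and 167 to 340 CPM in Mof+/-. Of 5 endothelial markers, 4 passed as lower, with sums of 720 to 1782 CPM in Mof+/+ and 186 to 220 CPM in Mof+/-. Of 5 hepatocyte markers 2 were tested on SD and 1 passed as higher in Mof+/- (Alb, adjusted p = 0.0361 by edgeR), with sums of 5.56 to 16.9 CPM in Mof+/+, where 2 to 4 of the 5 were at 0, and 61.1 to 451 CPM in Mof+/-, where 0 to 3 were. On HFD the hepatocyte sum was at most 9.44 CPM. Of 5 macrophage markers 1 passed as higher in Mof+/- on SD (sums of 364 to 562 and 655 to 785 CPM) and 4 passed as higher on HFD in Mof+/+. None of them passed between the genotypes on HFD, where the sums were 1525 and 2282 CPM in Mof+/+ and 405 and 1155 CPM in Mof+/-. Of 5 glial markers 1 passed as lower in Mof+/- on SD, with sums of 73.6 to 885 and 41.6 to 58.8 CPM. Between the diets in Mof+/+, 2 of the 5 endothelial markers passed as lower on HFD, with sums of 387 and 302 CPM there. In that comparison 1 glial marker and the adipocyte marker Retn passed as lower, and the adipocyte marker Lep and the muscle gene Casq1 as higher. The part of these markers in the values of the members was not tested, and fewer cells of a type cannot be told apart from less RNA per cell in bulk tissue.

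The muscle transcripts of HFD Mof+/- replicate 1 were set beside the members. The 16 muscle genes summed to 97089 CPM in replicate 1 and to 2019 CPM in replicate 2, a ratio of 48.1, against 74.7 and 83.2 CPM in HFD Mof+/+. None of the 16 was at 0 in either Mof+/- library. Of the 9 members, 1 (Acadl) was at its highest of the 10 libraries in replicate 1, 4 (Cpt2, Acadm, Acadvl and Hadhb) were at their highest in replicate 2, and 6 were lower in replicate 1 than in replicate 2. The median ratio of replicate 1 to replicate 2 was 0.624 over the 8 members with counts, beside 0.719 over 9855 genes, and these ratios were 0.812 and 0.935 when muscle and mitochondrial genome counts were taken out of the totals. Without replicate 1, that is with replicate 2 against both Mof+/+ libraries, the log2 fold change was 2.20 for Cpt2, 1.83 for Acadvl and 0.94 for Acadl. Without replicate 2 it was 1.20, 1.49 and 1.08. Both of these fits called 5 of 8 members, but a lone library is then assumed to vary like the Mof+/+ pair, and the same fits called 4326 of 15932 and 7551 of 15761 genes. No library of the HFD Mof+/- group was at the muscle level of the other groups, so that the group without muscle RNA could not be examined. The 5 brown adipocyte markers summed to 914 and 319 CPM in the HFD Mof+/- libraries, against 5.05 to 56.7 CPM in the others. Of the 5, 2 were at 0 in replicate 1 and 1 in replicate 2. Cox8b weighed most in the sum, with a mean of 513 CPM in HFD Mof+/-, beside 52.1 for Cidea and 50.4 for Ucp1.

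**Figure D4:**
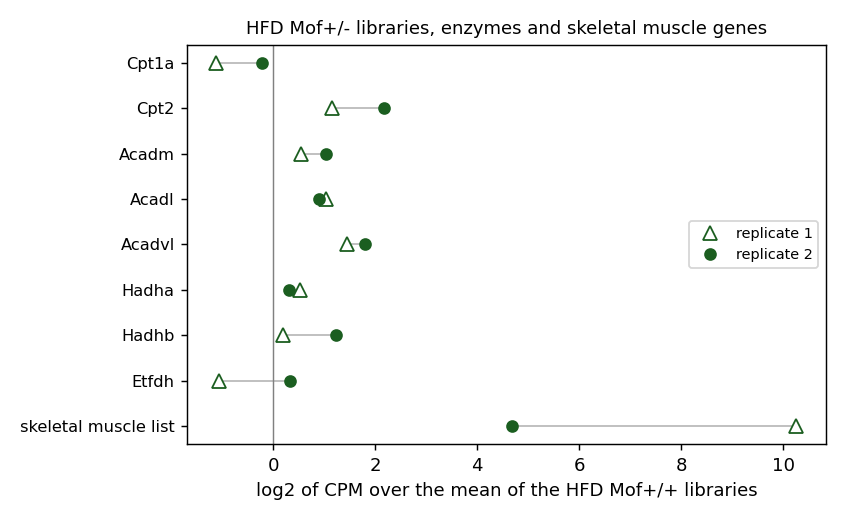
Log2 of the CPM in each HFD Mof+/- library over the mean of the HFD Mof+/+ libraries, for the 8 tested enzymes and for the summed 16 skeletal muscle genes; triangles are replicate 1 and circles replicate 2. The muscle genes lie at 10.3 and 4.68, whereas Cpt2 lies at 1.15 and 2.16, Acadl at 1.04 and 0.90, and Etfdh at -1.06 and 0.33.

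The other genes of the pathway were taken from a list of 24 that held carriers, peroxisomal enzymes and regulators. On SD, 2 of 23 tested passed the adjusted threshold as higher in Mof+/- and 1 as lower, against 5.24% of all genes. At an unadjusted p under 0.05 there were 12 higher and 1 lower, against 25.7%, and 13 higher and 4 lower did not overlap between the groups on the TMM scale, against 35.4%. Acsl1, which activates long-chain fatty acids to acyl-CoA, rose from 476 ± 52.7 CPM (SD, n = 3) to 1810 ± 650 CPM (log2 fold change 1.91, SE 0.326, adjusted p = 0.0290 by edgeR). Etfb, the beta subunit of the electron transfer flavoprotein that feeds ETFDH, rose from 29.0 ± 5.26 to 217 ± 205 CPM (log2 2.90, adjusted p = 0.0396), and 453 CPM in replicate 3 set its mean. Acacb, which makes the malonyl-CoA that inhibits CPT1, fell from 281, 213 and 177 CPM to 40.1, 33.4 and 33.9 CPM (log2 fold change -2.65, SE 0.261, adjusted p = 0.00482). Without SD Mof+/- replicate 2 none of the 3 passed, and without any 1 of the SD Mof+/+ libraries Acsl1 and Etfb did not, with log2 fold changes of 1.73 to 2.00 for Acsl1 and 2.78 to 3.23 for Etfb in these fits. Acsl1 also missed the threshold with all 10 libraries in 1 fit (log2 1.93, adjusted p = 0.0600), and Etfb with the length correction (log2 1.67, adjusted p = 0.0585).

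Between the diets in Mof+/+, 2 of 24 passed the adjusted threshold as higher on HFD and 1 as lower, against 9.75% of all genes. At an unadjusted p under 0.05 there were 4 higher and 6 lower, against 28.4%, and 4 higher and 8 lower did not overlap on the TMM scale, against 49.1%. Acaa2, the thiolase that ends a round of beta-oxidation, rose from 137 ± 19.4 CPM (n = 3) to 237 ± 19.0 CPM (n = 2; log2 0.81, adjusted p = 0.0474 by edgeR). Etfb rose from 29.0 ± 5.26 to 92.7 ± 26.0 CPM (log2 1.69, adjusted p = 0.0124), and Acacb fell to 17.4 and 20.2 CPM (log2 fold change -3.55, SE 0.269, adjusted p = 0.00301). Acaa2 lost its call without SD Mof+/+ replicate 1 or 2 or either HFD Mof+/+ library, and Etfb without SD Mof+/+ replicate 1 or HFD Mof+/+ replicate 2. Both lost it with all 10 libraries in 1 fit (adjusted p = 0.384 and 0.302) and in that fit without HFD Mof+/- replicate 1 (0.109 and 0.146). Acaa2 also lost it with the replicate block (0.0655), with the length correction (log2 0.51, adjusted p = 0.153) and by library totals (0.0726). In edgeR's test no gene of the list passed between the genotypes on HFD. On the TMM scale 22 of 24 were above 0 there, 8 had an unadjusted p under 0.05, each of them above 0, against 12.3% of all genes, and 13 higher and 1 lower did not overlap, against 51%. None passed for diet in Mof+/-, where 2 were higher on HFD at an unadjusted p under 0.05, against 8.57%, and 4 higher and 2 lower did not overlap, against 29.6%. Acacb was at 118 (103 counts) and 64.6 CPM in HFD Mof+/-, above both HFD Mof+/+ libraries, and it was the one gene of the list past the threshold for the interaction.

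Of 12 enzymes of the tricarboxylic acid cycle, which oxidises the acetyl-CoA that beta-oxidation yields, 1 passed the adjusted threshold as higher in Mof+/- on SD, against 5.24% of all genes, and 1 as lower on HFD in Mof+/+, against 9.75%. On SD, 3 were higher at an unadjusted p under 0.05, against 25.7%, and 4 were higher with no overlap on the TMM scale, against 35.4%. For diet in Mof+/+, 6 were lower at an unadjusted p under 0.05, against 28.4%, and 9 lower and 2 higher did not overlap, against 49.1%. Sdhb rose from 139 ± 6.53 to 317 ± 29.4 CPM (log2 1.18, adjusted p = 0.0322 by edgeR), and Sdha fell from 450 ± 61.3 to 242 ± 31.9 CPM (log2 fold change -0.88, adjusted p = 0.0436). Both encode subunits of succinate dehydrogenase, which also hands electrons to ubiquinone. Their calls were not followed through the alternatives, apart from the exchange of the third SD libraries, with which no gene passed in either comparison. None of the 12 passed edgeR's test between the genotypes on HFD. On the TMM scale all 12 were above 0 there, with a median log2 fold change of 0.88 beside -0.24 over all genes, 4 were higher at an unadjusted p under 0.05, against 12.3%, and 9 were higher with no overlap, against 51%. For diet in Mof+/- none of the 12 passed, 0 had an unadjusted p under 0.05, against 8.57%, and 0 did not overlap, against 29.6%.

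The comparisons that use SD libraries depend on which genotype the third SD libraries carry, whereas the comparison of the genotypes on HFD does not. With these exchanged, as the column headings have them, no gene of 13864 passed between the genotypes on SD, against 727 as labelled, and none of 14619 between the diets in Mof+/+, against 1457, and neither Cpt1a nor Acacb did. On SD the exchange lowered the log2 fold change of Acadl to 0.44 and of Acadvl to 0.17, and it raised that of Cpt1a to 0.63, Hadha to 0.45 and Hadhb to 0.45. The median over the 8 members was 0.30 both ways, but 6 of 8 were above 0 with the exchange, with Cpt2 and Acadm below it, and the median over all genes was -0.0087 in place of -0.07.

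Finally, the genes whose pattern was most like the mean of the 8 members were listed, over 9723 genes with a mean of at least 10 CPM. Over the 10 libraries they included Htra3 (Pearson r = 0.90, Spearman rho = 0.72), Cyc1 (0.90, 0.83), Twist1 (0.89, 0.77) and Mrpl38 (0.89, 0.78). Cyc1 encodes a subunit of respiratory complex III. Without HFD Mof+/- replicate 1 they included Fars2 (0.96, 0.87), Mrps27 (0.96, 0.70), C4b (0.95, 0.70) and Cyc1 (0.94, 0.83), so that Cyc1 was in both lists. The libraries share group, depth and tissue makeup, and these values describe them with no test. Set against the mean of the other members in the same way, Hadhb was the most alike (r = 0.89), and Cpt1a (0.04) and Etfdh (-0.04) were the least alike. Without HFD Mof+/- replicate 1, Etfdh had r = 0.36 and Cpt1a 0.09.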

How the data were processed

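Visceral WAT mRNA of 10 libraries in 4 groups was sequenced from TruSeq v2 libraries. The authors used STAR for mapping to GRCm38 and featureCounts for counting (Subread 1.5.0-p1, per the submitters' processing notes), and deposited raw counts per gene without normalisation. The annotation release and the settings for strand and shared exons are not given in the sources used here. Rows with no gene symbol held at most 0.0356% of the counts. Of 47937 identifiers, 47310 were matched to a symbol with the version dropped.

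Groups were taken from the sample labels. For each pair of groups, edgeR 4.0.16 was run with TMM factors and filterByExpr, and its quasi-likelihood p-values were adjusted by Benjamini-Hochberg over all genes (threshold 0.05), and the interaction was fitted to all 10 libraries. The Hadha to Hadhb ratio was tested with a two-sided exact permutation test. Lengths, overlaps and coordinates came from GENCODE M21, and promoter windows from RefSeq (GRCm38.p6). Total counts of 1044355 to 17171947 set the precision. Replicates of a group differed by far more than sampling noise (chi-square per gene of at least 36.0). No source says that libraries of a group came from separate animals, so that p-values measure the spread between these libraries, which may be technical. Same-numbered libraries did not deviate together (r = 0.0253 or less) and were not treated as pairs.

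The named genes were the 9 members, up to 5 other pathway genes per comparison past the adjusted threshold, and the 5 genes with the most similar pattern, of which 1 is not reported here. The members, lists and tests were chosen with earlier results of these data known. The alternatives were DESeq2 1.42.0, its size factors, no filter or a minimum of 10 counts, a replicate block, 1 fit of all libraries, TMM without muscle and mitochondrial genes, a length correction, the exchange of the third SD libraries and each library left out. Scaling by library totals was added after the data were seen. Computation used R 4.3.3, Python 3.11.15, pandas 2.3.3 and matplotlib 3.10.9.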

Additional observations from a re-analysis of the deposited data

Results flagged for a closer look

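Diet and age cannot be told apart here, with mice of 8 weeks on SD and of 27 weeks on HFD. Acacb, the acetyl-CoA carboxylase at the mitochondrial surface, differed between the diets unequally in the genotypes by the test of the interaction itself. It was at 281, 213 and 177 CPM in SD Mof+/+ and at 17.4 and 20.2 CPM in HFD Mof+/+, whereas it was at 40.1, 33.4 and 33.9 CPM in SD Mof+/- and at 118 and 64.6 CPM in HFD Mof+/-. The interaction was a log2 value of 4.90 (SE 0.508, adjusted p = 0.00412 by edgeR's quasi-likelihood test, 1 of 14 genes called among 15897). Both HFD Mof+/- libraries carried muscle RNA, with 97089 and 2019 CPM over the 16 muscle genes, against 74.7 and 83.2 CPM in HFD Mof+/+. The part of muscle RNA in the Acacb values was not tested. Without HFD Mof+/- replicate 1 the interaction was 4.46, and without replicate 2 it was 5.28. It missed the threshold without HFD Mof+/+ replicate 1 (4.84, adjusted p = 0.0512) or 2 (5.06, 0.0514) and with the third SD libraries exchanged (3.35, 0.530). The adjusted p ran from 1.25e-17 to 0.530 over the alternatives. Groups of 2 or 3 libraries are too small for a test of single outlying values.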

How the results depend on the processing

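Over all alternatives 886 values were recomputed for 56 results. Of 783 values for 47 results on named genes, 696 kept their direction and their side of the threshold, 38 lost their call, 15 gained one and 34 changed sign. The other 103 values were for 9 summaries, the numbers of members called and the Hadha to Hadhb differences. Of these, 14 moved past a set margin, and a turn of sign was not counted for them. The number of members called became 1 on SD with DESeq2 and 1 with all libraries except HFD Mof+/- replicate 1 in 1 fit (Acadl in both); it became 2 for diet in Mof+/+ and 1 for the interaction with DESeq2. For diet in Mof+/+ it was 0 with all 10 libraries in 1 fit, 0 without HFD Mof+/- replicate 1 in that fit and 0 with the SD replicates numbered 3 exchanged. Leaving out 1 library gave 0 to 1 there and 0 to 5 for the genotypes on HFD. Among all genes, calls ranged from 0 to 2211 on SD (727 as reported), 0 to 7551 on HFD (0), 0 to 2990 for diet in Mof+/+ (1457), 0 to 2122 in Mof+/- (0) and 0 to 3163 for the interaction (14). The replicate block, by a number that the libraries only share, called 1 member on HFD (Cpt2, adjusted p = 0.0368) and 200 genes there, 428 on SD and 245 for diet in Mof+/-; not every SD library correlated best with its own number. Log2 fold changes that turned sign had not been called, except for Etfb with the exchange (-1.14 on SD, -0.84 for diet in Mof+/+). With the exchange Cpt2 was -0.12 and Acadm -0.046 on SD, Hadha 0.058 for diet in Mof+/+ and -0.043 for the interaction. With library totals, SD values were -0.050 (Cpt1a), -0.067 (Cpt2), -0.075 (Hadha), -0.10 (Hadhb) and -0.21 (Etfdh), and Hadhb was -0.11 for diet in Mof+/+. With the length correction Etfdh was -0.00065 on SD, Hadha 0.088 and Hadhb -0.13 for diet in Mof+/+, and Hadha -0.031 for the interaction. With the block Hadha was 0.078 for diet in Mof+/+ and -0.046 in Mof+/-, and Cpt1a -0.061 in Mof+/-. Without HFD Mof+/- replicate 1 in the common fit Etfdh was 0.38 on HFD, 0.027 for diet in Mof+/- and 0.22 for the interaction. With 1 library left out, Etfdh ran from -0.00024 to 0.33 on SD and from -1.01 to 0.36 on HFD, Hadha from -0.16 to 0.069 and Hadhb from -0.060 to 0.073 for diet in Mof+/+, and in Mof+/- Cpt1a from -0.34 to 0.55, Acadm from -0.10 to 0.39, Hadha from -0.045 to 0.26 and Hadhb from -0.048 to 0.98. For the interaction Hadhb ran from -0.081 to 1.01 and Etfdh from -1.22 to 0.22. The causes of these changes were not tested. Depth limits HFD Mof+/- replicate 1 most, where 3 counts are 3.42 CPM, against 0.176 CPM in the deepest HFD library. A fit without both muscle-bearing libraries was not run, since they are the whole group, and the Cpt1b to Cpt1a ratio has no value.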
